A study of Mus musculus with 4 samples.

Results

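Th17 cells grown from naive CD4 T cells were compared with Th0 cells grown from naive CD4 T cells. The comparison used 2 of the 4 arrays of the series, defined by their labels. It took in every gene that either array measured, 11050 genes of the 18193 that have a probe set of their own. The comparison and the gene lists read below were chosen with earlier results of these data known. Each array was hybridised with total RNA of 1 sorted population, so the comparison rests on 1 array per group. No spread between samples can be given, no test between the groups was possible, and the handling of a single culture, sort or hybridisation cannot be told apart from the condition.

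Both populations derive from C57BL/6 mice aged 8-10 weeks, whose spleen and lymph nodes were used. Naive CD4 T cells were cultured under Th0 conditions, and the cells negative for an IL-17 GFP reporter and for Foxp3 (stained with APC) were sorted. The Th17 population came from naive CD4 T cells under Th17 conditions, sorted as positive for the IL-17 reporter and negative for Foxp3. The arrays therefore differ in both culture and gate, and the effect of one cannot be told apart from that of the other. The labels used here give neither the cytokines of the Th17 culture, nor the length of culture, nor the number and sex of the mice, nor whether they were pooled. The other arrays of the series hold cells that began as Foxp3+ CD4 T cells: exFoxp3Th17 cells, cultured under Th17 conditions and sorted like the Th17 cells, and Treg cells, kept with IL-2 and sorted as Foxp3 positive and IL-17 negative. Those 2 arrays serve here as a second look at the same genes, and they also enter the floor and the choice of probe set.

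Th17 cells are helper T cells that defend mucosal surfaces and drive tissue inflammation. They arise when a naive CD4 T cell is activated in the presence of TGF-beta and IL-6, which act through SMAD proteins and STAT3, and IL-1, IL-21 and IL-23 then sustain them. The factors BATF, IRF4, STAT3 and RORa set up the program, MAF and AHR shape its cytokines, and HIF-1 ties it to glycolysis. Th0 cells are activated without polarising cytokines and serve as the neutral control.

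Signals are MAS5 intensities on a linear scale. A floor of 12.1, which is the pooled median of the non-control probe sets, replaced lower values before a ratio was taken. A gene was called higher or lower in Th17 when the ratio reached 2-fold and the brighter array lay above that floor. A fold against an array below the floor is a lower bound, written "at least". Pairs of values are given with Th0 first and Th17 second unless other arrays are named. Between the arrays the log2 ratio of Th17 over Th0 had a median of -0.07 over all measured genes, with the middle 95% between -1.58 and 2.11. A bulk signal cannot tell fewer cells that express a gene from less RNA of it in each cell.

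The labels were first set against marker genes. Foxp3, the transcription factor of regulatory T cells, lay below the floor on both arrays (4.25 in Th0 and 6.2 in Th17), and the gate took Foxp3-negative cells on both. Il17a, the cytokine whose reporter was sorted on, also lay below the floor on both (7.09 and 9.81), so the only probe set of this gene gave no separation of the gates. Il17f, Il22 and Il23r, other defining genes of the Th17 program, were not analysed here. The T cell receptor chains Cd3d, Cd3e and Cd3g differed by less than 2-fold, as did Cd4, at 109.6 in Th0 and 81.2 in Th17. The mean signal was 99.2 and 99.3 once the extreme 2% at each end was trimmed, and 99.3 on both other arrays. Scaling of the arrays can set such a value, so it is no check on them. The median signal was 12.9 in Th0 and 11.1 in Th17, and 51.2% and 48.7% of probe sets were above the floor. The arrays were alike in the 3'/5' ratio of the Gapdh controls, which tracks degradation of RNA (1.06 in Th0, 0.907 in Th17). Y-linked transcripts such as Eif2s3y (747 and 876) were alike too.

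The genes higher in Th17 included the Th17 factors Maf, Rora and Irf4, the cytokines Il21, Il9, Il10 and Il24, the gut homing receptor Gpr15, both metallothioneins and targets of HIF-1. The genes lower in Th17 included the Th2 factor Gata3, the quiescence genes Klf2, Dapl1 and Cd27, the receptor adaptor Trat1, type I interferon response genes and genes of mitosis. In all, 968 genes were called higher in Th17 (8.76% of those measured) and 810 lower (7.33%), so that 16.1% were called in either direction and 9272 lay within 2-fold. The largest ratios were on the higher side. At 4-fold or more there were 309 genes higher and 142 lower, at 16-fold or more 54 and 14, and at 32-fold or more 29 and 4. The fold is a lower bound for 239 of the higher and 118 of the lower genes.

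**Figure D1:**
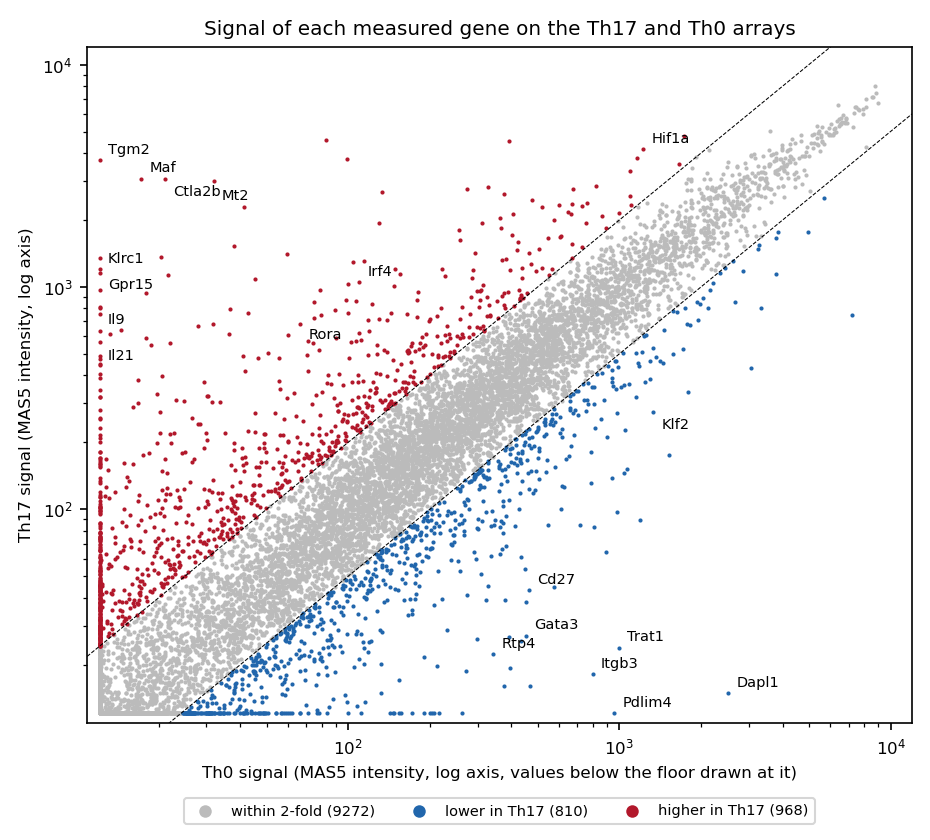
Signal of each of the 11050 measured genes on the Th0 array (horizontal, MAS5 intensity, log axis) and on the Th17 array (vertical, log axis), with values below the floor of 12.1 drawn at it and dashed lines at 2-fold. The 968 red genes were higher in Th17 and the 810 blue genes lower, and the points farthest from the diagonal lie on the upper side.

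Probe sets of a gene share the RNA and are not replicates, but they are separate measurements of the same transcript. Wherever other probe sets of a gene are counted or quoted, only those above the floor on either array are meant. Another probe set above the floor was present for 468 of the genes called higher, and every such probe set went the same way for 409 of them and by 2-fold or more for 194 (41.5%). For the genes called lower, 371 had another probe set above the floor. All of these went the same way for 334 genes and by 2-fold or more for 150 (40.4%). Agreement was greater for calls with a larger ratio: among calls of 8-fold or more, all other probe sets passed 2-fold for 52 of 73 higher genes (71.2%) and 13 of 19 lower genes (68.4%). It was also greater at higher signal, from 22.9% of calls at 1 to 4 times the floor to 55.5% at over 64 times. Across 2622 pairs of probe sets above the floor on both arrays, the log2 ratios of a pair differed with a robust SD of 0.52, where a 2-fold difference is 1.

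**Figure D2:**
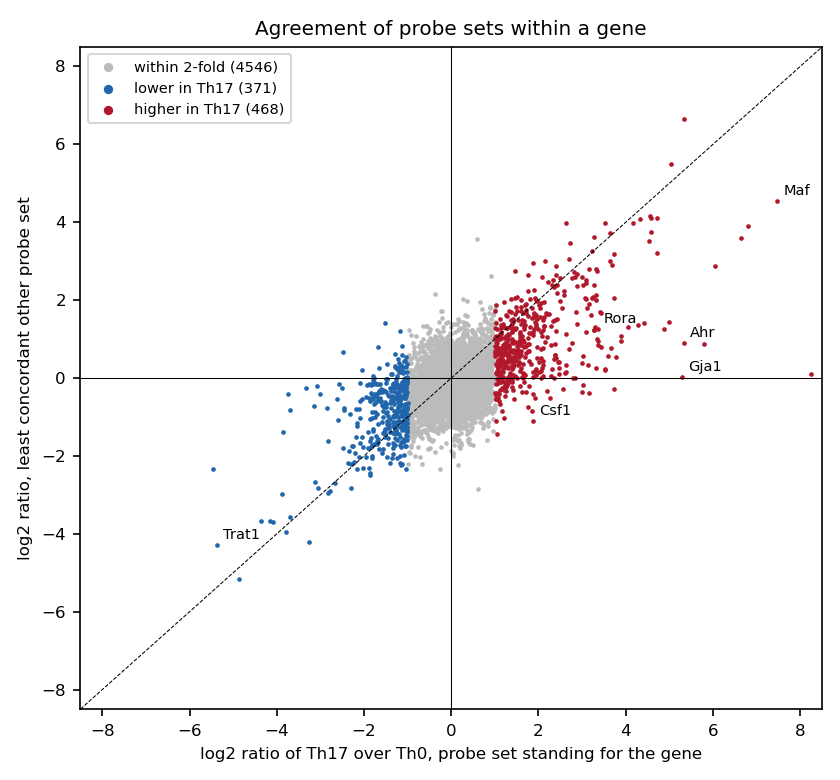
Log2 ratio of Th17 over Th0 for the probe set standing for a gene (horizontal) against that of its least concordant other probe set above the floor (vertical), for genes with such a probe set, with equality dashed. Called genes (468 higher in red, 371 lower in blue) lie mostly in the quadrants of agreement. The other probe set is mostly nearer 0, which the choice of called genes and of the least concordant probe set favours. Csf1 is among the 6 called genes whose other probe set was past 2-fold the opposite way.

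All the other probe sets above the floor agreed for Maf and Rora, both transcription factors of the Th17 program. Maf, a large MAF-family factor that drives Il21 and Il10, read 17.2 in Th0 and 3072 in Th17. That is 178-fold higher, and the 4 other Maf probe sets above the floor had log2 ratios of 4.54 to 6.79. Rora, a nuclear receptor, read 66.3 and 682, 10.3-fold, with 6 other probe sets between 1.25 and 4.7 on the log2 scale. Of 15 measured genes on a list of Th17 transcription factors, 12 were higher, none lower and 3 within 2-fold, and the median log2 ratio was 1.77 against -0.07 over all genes. Irf4, which opens chromatin with BATF in activated T cells, stood at 109.5 and 1055, and Fosl2, an AP-1 member, at 18.7 and 548. Rbpj, the nuclear effector of Notch, was 7.36-fold higher (156 in Th0, 1146 in Th17), and both its other probe sets agreed. Hif1a, the oxygen-regulated factor, was bright on both arrays, at 1224 and 4162. Batf itself was the same on both (420.4 and 421), and Runx1 and Ikzf3 also lay within 2-fold.

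Other members of that list had weaker support. Ahr, the aryl hydrocarbon receptor that senses environmental ligands, was 40.2-fold higher (38 and 1528), but its other probe set had a log2 ratio of only 0.9. Stat3, the transducer of IL-6, IL-21 and IL-23, was 2.33-fold higher, and 1 of its 3 other probe sets was lower by 2-fold. Nfkbiz, a nuclear IkB protein, was 2.08-fold higher, and 1 of its other probe sets was lower at -1.43 on the log2 scale. Sox5 and Zbtb32 were higher at signals under 4 times the floor.

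Of 16 measured helper cytokines and growth factors, 10 were higher, none lower and 6 within 2-fold (median log2 ratio 2.49). This was the highest median of the 57 gene lists read, but it covers measured members only. Another 6 members with a probe set were below the floor on both arrays and are left out of it. Il21, Il9, Il10, Il24, Csf2 and Tgfb3 were measured through the Th17 array alone, which favours a high median. Il21, the autocrine cytokine of Th17 cells, stood at 1.5 in Th0 and 491 in Th17, at least 40.6-fold. Il9, a mast cell and mucosal growth factor, read 9.7 and 813 and Il10, an anti-inflammatory cytokine, read 5.13 and 408. All of these were below the floor in Th0 and far above it in Th17. Il24, an IL-10 family cytokine, read 0.778 and 568, and Lif, an IL-6 family cytokine, 30.4 and 323. The TNF family members Tnf (30.1 and 204) and Lta, lymphotoxin alpha (258 and 1626), were 6.8-fold and 6.29-fold higher. Csf2, the GM-CSF gene tied to pathogenic Th17 cells, reached only 61.1 in Th17 from 10.2. Tgfb3, the TGF-beta isoform that Th17 cells make, reached 75.4 from 1.96. Ltb, lymphotoxin beta, was equal on the arrays at 3793 and 3817, and Tgfb1, Il2, Il4, Tnfsf8 and Tnfsf11 lay within 2-fold. The chemokine Ccl20, the ligand of CCR6 by which Th17 cells draw in more of their kind, read 1.02 in Th0 and 169 in Th17 and was the only one of 5 measured chemokines past 2-fold.

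Among 24 measured cytokine receptors 7 were higher and 3 lower, with 14 within 2-fold. Il1r1, the signalling receptor of IL-1, was below the floor in Th0 (1.42) and at 103 in Th17, and the decoy receptor Il1r2 read 4.25 and 156. Il12rb1, the chain shared by the IL-12 and IL-23 receptors, was 5.76-fold higher (18.2 and 105). Il2ra, the high-affinity IL-2 receptor chain, read 646 and 2178, with its other probe set at 2.65 on the log2 scale. Il17re, a receptor chain for IL-17C, was 4.22-fold higher, and Ifngr2 was higher by one probe set (1.91) and slightly lower by the other (-0.52). In the other direction, Il6st, the gp130 chain of the IL-6 receptor, was 245 in Th0 and 71.4 in Th17, and Il18r1 was 969 and 348. Ifnar1, a chain of the type I interferon receptor, was 2.07-fold lower, with its other probe set lower still. Il6ra, Il21r, Il17ra and Il7r lay within 2-fold.

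Receptors that position T cells differed in both directions. Of 15 measured chemokine and chemoattractant receptors, 6 were higher and 3 lower. Gpr15, which directs T cells to the large intestine, read 6.93 and 1161, at least 95.9-fold. Ccr6, the receptor for CCL20, read 19.6 and 329, and Ltb4r1, the leukotriene B4 receptor, read 1.26 and 447. Cxcr4, Cxcr6 and Ccr4 were also higher. S1pr1, the receptor that brings T cells out of lymph nodes, was lower, at 329 in Th0 and 138 in Th17. The related receptor S1pr4 was also lower, at 981 and 271. Ccr2 was 2.44-fold lower, with 2 of 3 other probe sets past 2-fold, and Ccr7, the lymph node homing receptor, was alike at 962 and 992.

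**Figure D3:**
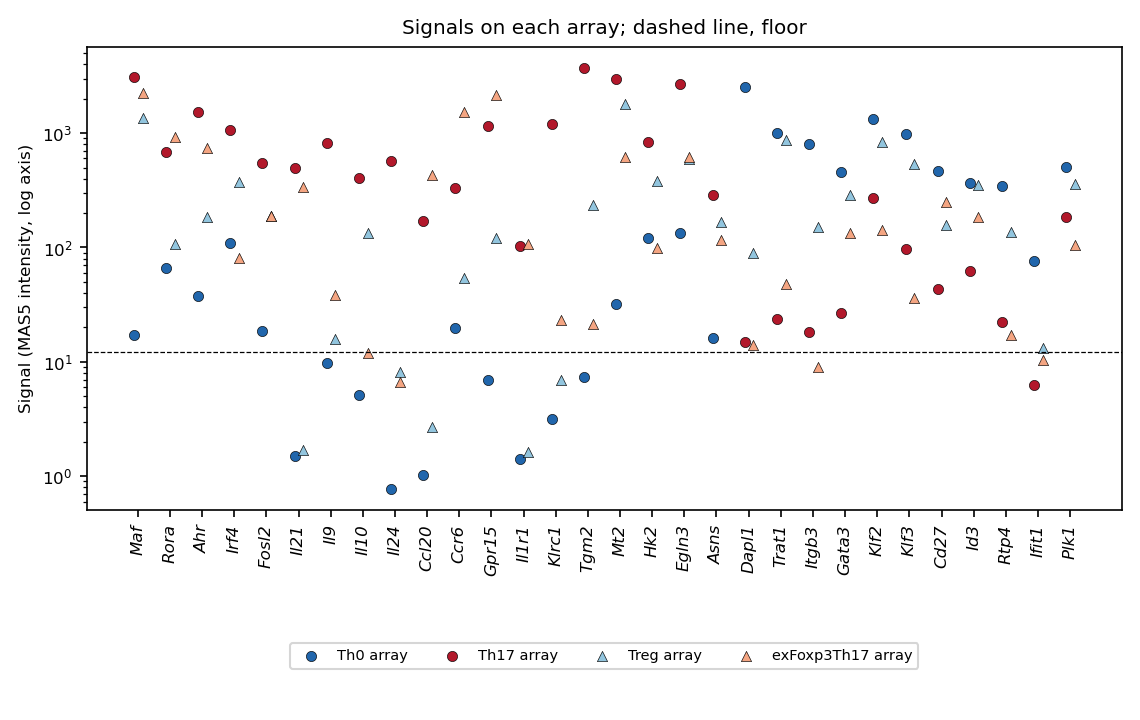
MAS5 signal (log axis) of 30 named genes on the Th0 and Th17 arrays (circles) and, as a second look, on the Treg and exFoxp3Th17 arrays (triangles), with the floor of 12.1 dashed. Maf and Gpr15 are far higher in Th17 than in Th0, Dapl1 and Trat1 far lower, and Tgm2 is at 3704 in Th17 but 21.5 in exFoxp3Th17.

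Targets of TGF-beta and of IL-6 and STAT3 were read as lists, although the labels do not give the cytokines of this culture. For TGF-beta, 18 genes were measured, and 7 were higher and none lower (median 0.58). The receptors Tgfbr1, Tgfbr2 and Tgfbr3 and the transducers Smad2, Smad3, Smad4 and Smad7 all lay within 2-fold, while the feedback regulators and targets Skil (222 in Th0, 1199 in Th17), Pmepa1 (60.2 and 609.5), Ski and Ldlrad4 were higher. Itgae, the integrin chain CD103 induced by TGF-beta, reached only 46.7 in Th17, and its other probe set did not differ (log2 ratio 0.08). For IL-6 and STAT3, 10 of 16 measured genes were higher and 2 lower (median 1.72), but several of them are the Th17 factors already described. Outside those, Socs3, the feedback inhibitor of STAT3, read 663 and 2121 with both other probe sets at 1.47 to 1.57 on the log2 scale, Bcl3 read 55.7 and 376, and Pim1 was alike (1792 and 1821). Of the 14 measured SOCS, PIM and PIAS genes, Cish, Socs3 and Pim3 were higher and the rest within 2-fold.

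Of 8 measured targets of the aryl hydrocarbon receptor, 5 were higher and 1 lower. Cyp1b1, a xenobiotic-metabolising P450, read 8.75 and 160.4, with its other probe set at 2.05 on the log2 scale. Tiparp, an ADP-ribosyltransferase that dampens AHR, was 3.13-fold higher, with both other probe sets past 2-fold. The repressor Ahrr (51.3 in Th17) and Cyp1a1 (35.9) were below the floor in Th0 and dim in Th17. Nqo1 was lower, at 34.9 in Th0 and below the floor in Th17.

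Markers of other helper lineages gave no single direction. The Th2 factor Gata3 was among the largest differences of all, 453 in Th0 and 27 in Th17, 16.8-fold lower, and has a single probe set. Of the other Th2 genes, Ecm1, an extracellular matrix protein of Th2 cells, was higher, at 114 and 1305, and so was Nfil3, a bZIP repressor, at 22.1 and 217. Among 9 measured Th1 genes, Il18r1 and Fasl were lower, Runx3 was higher (332 and 829), and Stat4 and Cxcr3 lay within 2-fold. Fasl was dim, at 41.3 in Th0 and below the floor in Th17, and its other probe set did not differ (log2 ratio -0.002). The follicular helper list had 5 of 11 measured genes higher and none lower. These were Il21, Tox2, Bcl6, Icos and Cd200. Tox2, an HMG-box factor, read 16.8 and 383, while Bcl6, the follicular repressor, was 4.14-fold higher by one probe set and at a log2 ratio of 0.18 by the other.

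Genes associated with regulatory T cells were higher in Foxp3-negative Th17 cells in 10 of 18 measured cases and lower in none (median 1.42). Nt5e, the ectoenzyme CD73, read 107 and 866, with its other probe set at 2.38 on the log2 scale. Ikzf4, the Ikaros-family factor Eos, read 59.6 and 318 and Tnfrsf9, the costimulatory receptor 4-1BB, read 27.1 and 168. Ctla4, the inhibitory receptor, was 755 and 1943, and Tnfrsf4 (OX40) 544 and 1658. Several of these are also induced in any activated T cell. Ikzf2, Gpr83, Izumo1r and Entpd1, by contrast, lay within 2-fold and were dim on both arrays, with Ikzf2 at 62.2 and 48.2. The other probe set of Ikzf2 was lower, at a log2 ratio of -1.89.

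The wider set of lineage, Ikaros and RUNX factors was balanced, with 7 of 27 measured genes higher and 5 lower. Id2 and Id3, inhibitors of E proteins, differed in opposite directions: Id2 was 400.4 and 1708, Id3 364 and 62.8. The other Id2 probe sets were at 0.34 and 2.14 on the log2 scale. Irf8, a factor known to restrain Th17 differentiation, read 23.3 and 309 with an agreeing second probe set (log2 ratio 3.19). Prdm1, encoding Blimp-1, was 61.9 in Th0 and below the floor in Th17. The HMG-box factors Tox (131 and 28.7) and Sox4 (206 and 71.6) were lower with all other probe sets above the floor agreeing.

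Genes of naive and memory T cells were lower as a group, with 8 of 15 measured members lower, none higher, and -1.08 as the median log2 ratio. Dapl1, a death-associated protein homologue abundant in naive T cells, had the largest ratio downward of any gene, 2522 in Th0 and 14.9 in Th17. Its single probe set gave a 169-fold difference. Klf2, the factor that keeps S1pr1 and homing receptors on, was 1336 and 273, and its relative Klf3 983 and 97.3, with 5 of 6 other Klf3 probe sets past 2-fold. Cd27, a memory costimulatory receptor, was 465 and 43.2. Foxp1, which enforces quiescence, was 2.12-fold lower with 5 of 7 other probe sets past 2-fold, and the alpha-actinin gene Actn1 was 2.86-fold lower with both. Ccr7, Lef1, Foxo1, Satb1, Bach2 and Il7r lay within 2-fold, so the list was not uniform. Tcf7 was not analysed here.

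T cell receptor signalling genes were also on the lower side without passing 2-fold in most cases: of 22 measured, 4 were lower, none higher and 18 within 2-fold (median -0.47). Trat1, a transmembrane adaptor that stabilises the receptor complex, was 994 in Th0 and 23.9 in Th17. That is 41.6-fold lower, and its other probe set had a log2 ratio of -4.30. The adaptor Sla, which promotes turnover of the receptor, was 2.87-fold lower with 3 other probe sets agreeing, and the phosphatase Ubash3b 3.22-fold lower with 2. Cd247, the zeta chain, was 3.03-fold lower by its brightest probe set and by less than 2-fold by both others above the floor.

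Costimulatory and adhesion receptors differed in both directions. Of 18 measured costimulatory and inhibitory receptors, 8 were higher and 1, Cd27, was lower. Icos read 671 and 2359, with 2 other probe sets at 2.03 and 2.64 on the log2 scale, and Slamf1 read 156 and 452. Cd28, Cd5, Btla and Pdcd1 lay within 2-fold. Of 19 integrin and adhesion genes, 5 were higher and 5 lower. The beta chain Itgb3, which pairs with the alpha V chain, was 797 in Th0 and 18.1 in Th17, with its other probe set at -2.33 on the log2 scale. Itgb7, the gut-homing partner of alpha 4, was 1239 and 375, and Itga4 itself 116 and 13.6. The other Itga4 probe sets were at -2.02 and -0.21 on the log2 scale. Itgb1 was higher (131 and 406), as were Itga3, Icam1 and Alcam.

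Killer cell lectin receptors, best known from natural killer cells, were higher in Th17: of 7 measured receptors and their Clec2 ligands, 5 were higher and 2 lower. Klrc1, encoding the inhibitory chain NKG2A, read 3.18 and 1200, with its other probe set at 3.58 on the log2 scale. Its partner Klrd1 (CD94) read 256 and 1801, and Klre1 read 0.544 and 167. Klrk1 and Klrb1f were higher at low signal. Other genes that define natural killer cells lay below the floor on both arrays: Ncr1 (5.3 and 1.02), Eomes (1.13 and 2.04), Tyrobp (2.43 and 0.363) and Fcer1g (5.99 and 8.65). The C-type lectins Clec2d and Clec2i, ligands of related receptors, were lower, Clec2i at 396 and 19.3. In the gene order of assembly GRCm38.p6, Cd69, Gabarapl1, Klre1, Klrd1, Klrk1 and Klrc1 follow one another among the measured genes and were all higher. This was the longest of 14 runs of 3 or more adjacent genes called higher; 14 such runs were lower. Among the other runs, Fcmr, Il24, Il10, Mapkapk2 and Dyrk3 were higher together, as were Armcx4, Armcx1, Armcx6, Armcx3 and Armcx2.

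Proteases and their inhibitors held several of the largest ratios. Of the inhibitors of cysteine cathepsins made by activated T cells, Ctla2b read 21.1 and 3063, and Ctla2a read 82.9 and 4569. The genes are adjacent and close copies, and how far each probe set reads the other was not tested. Ctsw, a cathepsin of cytotoxic lymphocytes, read 20.4 and 1358, and Ctsl read 114 and 379. Serpinb1a, an inhibitor of neutrophil proteases, read 1.15 and 1354, with its other probe set at 3.89 on the log2 scale, and Timp1, a metalloproteinase inhibitor, read 0.312 and 972. Of 16 cathepsin and cathepsin inhibitor genes 5 were higher and 2 lower, and of 13 serpins, TIMPs and metalloproteases 5 were higher and none lower. Gzmb and Prf1, effectors of cytotoxic granules, were near or below the floor in both populations (Gzmb 22.5 and 11).

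The largest ratio of all belonged to Tgm2, a transglutaminase that crosslinks proteins. It was below the floor in Th0 (7.41) and at 3704 in Th17, at least 306-fold, and 4 of its 5 other probe sets passed 2-fold. Among the 25 genes with the largest ratio upward were also the receptor genes Procr (1.53 in Th0, 752 in Th17) and Pdpn, podoplanin, a mucin-like glycoprotein reported on Th17 cells (6.1 and 631). Crispld2, a secreted protein, read 0.925 and 804 with both other probe sets agreeing, and Gja1, the gap junction protein connexin 43, 3.61 and 475 with 4 of 5. Cpd, carboxypeptidase D, was 41.2 and 2290.5 with 5 of 6 other probe sets past 2-fold. Plac8 (21.6 and 1133), the stress-response gene Ier3 (18 and 944), the receptor Lgr4 and the uridine phosphorylase Upp1 were also on that side. On the lower side, Pdlim4, a PDZ and LIM domain protein, read 958 and 4.1 and Sytl2, a vesicle tether, read 375 and 16.1. Itih5 (435 and 25.5) and the sialyltransferase St8sia6 (391 and 26.6) were lower by every probe set above the floor. Of the 25 genes with the largest ratio downward, the aldo-keto reductases Akr1c12 and Akr1c13 lie next to each other and to Akr1c18, and all were lower.

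Both metallothioneins, small cysteine-rich proteins that buffer zinc and copper, were among the largest differences. Mt2 read 31.9 in Th0 and 2990.2 in Th17, 93.8-fold higher, and Mt1 99.1 and 3765, 38-fold higher. Of the 19 measured metallothioneins and zinc transporters, 5 were higher and none lower. Slc39a8, a zinc importer, read 90.2 and 587 by its brightest probe set, with the other at a log2 ratio of 0.74, and Slc39a14, another importer, was 3.04-fold higher. The zinc sensor Mtf1 (71.1 and 72.8) and the zinc exporter Slc30a1 (70.3 and 62.2), a known target of MTF1, lay within 2-fold. MTF1 acts through metal response elements close to the start site, which are shown because the Mt genes are their classic bearers. In the window from 250 bases before to 50 after the start (RefSeq, GRCm38.p6), Mt1 held 3 and Mt2 held 4 matches to TGCACNC or TGCGCNC on either strand. The stretches below lie upstream of the start on the plus strand of chromosome 8, chr8:94179056-94179082 for Mt1 and chr8:94172385-94172584 for Mt2, and show 1 of the Mt1 and 3 of the Mt2 matches in capitals.
Mt1: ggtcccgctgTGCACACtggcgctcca
Mt2: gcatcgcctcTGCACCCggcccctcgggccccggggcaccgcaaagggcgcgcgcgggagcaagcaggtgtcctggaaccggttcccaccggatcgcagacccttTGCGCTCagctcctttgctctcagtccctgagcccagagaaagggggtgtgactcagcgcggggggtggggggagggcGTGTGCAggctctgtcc
This short motif is common: it was in 25.6% of all 27025 promoters of the table and in 36.5% of those of measured genes. Its share was 37.1% among genes higher in Th17 and 33.7% among genes lower.

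Genes of the type I interferon response were on the lower side. Of 24 measured, 13 were lower, none was higher and 11 lay within 2-fold, and the median log2 ratio was -1.01. Rtp4, a chaperone of membrane receptors induced by interferon, read 342 in Th0 and 22.3 in Th17. Ifit1, which binds foreign RNA caps, read 76.6 in Th0 and lay below the floor in Th17 (6.23), Ifit2 read 263 and 86.4 and Ifit3 read 69.6 and 13.2. Irf7 (66.9 and 21.9), Usp18 (66.5 and 18.8), Xaf1, Rsad2, Cmpk2, Oas1a, Oas3, Isg20 and Ifih1 were the others. Many of these were dim already in Th0, with Oas1a at 33.6 and Rsad2 at 54.1, so the folds are partly bounds. Irf9, Stat2, Trim30a and Ifi35 lay within 2-fold, and Bst2 was on the higher side at a log2 ratio of 0.8. Outside the list, the interferon-inducible Ifi209 (891 and 64.1), Epsti1 (1188 and 89.2) and Ifit1bl1 (263 and 9.99) were among the 25 genes with the largest ratio downward. Adjacent runs of lower genes included Ifit2, Ifit3 and Ifit1bl1, then Oas3, Oas1c and Oas1a, then Ifi213, Ifi209 and Mndal, then Trim34a, Trim5 and Trim12a, and the pair Rsad2 and Cmpk2 beside Rnf144a. Isg15 was not analysed here.

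The interferon-stimulated response element, bound by a complex that holds IRF9, was searched on both strands as GAAA, any 2 bases, and GAAA again. It was found in 10 of the 19 list promoters present in the table (52.6%) and in 3.49% of all promoters. Its share was 6.07% (39 of 643) among genes lower in Th17, 2.61% (20 of 765) among genes higher, and 2.98% among all measured genes. The lower genes include the list, so the share is no separate evidence on it. The stretches of Ifit1 and Ifit3 are shown because each carries a pair of matches, here on the opposite strand and in capitals, at chr19:34640775-34640823 for Ifit1 and chr19:34583363-34583426 for Ifit3 on the plus strand (RefSeq, GRCm38.p6).
Ifit1: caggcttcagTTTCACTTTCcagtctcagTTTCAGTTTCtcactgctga
Ifit3: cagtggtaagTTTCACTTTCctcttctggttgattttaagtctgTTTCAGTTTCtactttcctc
Of the 11 lower list members with a promoter in the table, 6 held the element (54.5%), a share near that of the whole list. The promoters of Ifit2, Irf7 and Cmpk2 were among those of lower members without a match in this window. Bst2, on the higher side, held 2 matches.

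Other interferon-related families were divided. Of 12 measured guanylate-binding proteins, immunity-related GTPases and IFITM genes, 4 were lower and 1 higher. Gbp2 was higher, at 104 and 1298, with its other probe set at 3 on the log2 scale, while Gbp6 and Gbp7 were lower, Gbp7 at 537 and 147, each with an agreeing second probe set. Ifitm3, an antiviral membrane protein, read 154 and 17. Igtp, Irgm1, Irgm2 and Ifi47, typical targets of interferon gamma, lay within 2-fold. Of 12 measured MHC class I presentation genes 11 lay within 2-fold, with B2m at 5091 and 4426. H2-Ab1, a class II chain, was 7.35-fold higher (29.9 and 219.8) with both other probe sets agreeing, but Cd74 and H2-Eb1, which are expressed with it in antigen-presenting cells, were near the floor on both arrays.

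AP-1 and NF-kB genes were mostly on the higher side. Of 15 measured AP-1 and ATF factors 9 were higher and none lower (median 1.11), and they included Jun (71.1 in Th0, 569 in Th17), Junb (45.4 and 271) and Batf3 (7.04 and 114). Fos and Jund lay within 2-fold. The AP-1 site, searched as TGANTCA on both strands, was in 6.8% of promoters of genes higher in Th17 and 5.44% of those lower, against 4.72% of measured genes and 7.93% of all. Of 16 NF-kB genes 6 were higher and 1 lower; the inhibitor of apoptosis Birc3 read 503 and 1479 and the kinase gene Ikbke was lower, at 505 and 188. The immediate early genes split, with 7 of 22 higher and 4 lower. Among negative regulators of MAP kinases, Dusp4 was 17-fold higher (36.2 and 615) and Dusp6 and Dusp5 were lower, Dusp6 at 661 and 193. Rgs1, a regulator of chemokine receptor signalling, read 274 and 2759.

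HIF-1 targets outside glycolysis were higher in 10 of 16 measured cases and lower in none (median 1.15). Egln3, the prolyl hydroxylase that HIF-1 induces as feedback, read 133 and 2667, with its other probe set at 4.08 on the log2 scale. Ero1a, an oxidase of the endoplasmic reticulum, read 364 and 2052 with both others agreeing, Mxi1, a MYC antagonist, read 147 and 1010, and Bnip3, a mitophagy receptor, read 823 and 2837. Of 17 glycolysis genes 5 were higher and none lower (median 0.76): the glucose transporters Slc2a1 (759 and 2387) and Slc2a3 (598 and 2328), hexokinase Hk2 (122 and 835), Pfkfb3 and Pgam1. All 27 measured oxidative phosphorylation genes lay within 2-fold (median -0.09).

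Genes of amino acid supply were partly higher. Of 27 measured ATF4 targets 8 were higher and none lower (median 0.52). Asns, asparagine synthetase, read 16.1 and 288 with its other probe set at 3.97 on the log2 scale, Slc7a5, the large neutral amino acid transporter, read 88.8 and 318, and Vldlr read 40.8 and 491. ATF4 binds a C/EBP-ATF response element, searched as TGATGNAA on both strands. It was in 8 of 23 promoters of this list (34.8%). Its share was 3.4% among genes higher in Th17 and 2.49% among genes lower, against 2.13% of measured genes and 4.06% of all. Only 2 of the 6 higher members with a promoter in the table held it. The stretch of Asns with its single match in capitals is shown, on the minus strand at chr6:7693215-7693242 (RefSeq, GRCm38.p6).
Asns: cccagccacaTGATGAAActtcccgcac
Unfolded protein response genes were higher in 3 of 18 cases (Xbp1, Pdia6 and Sdf2l1), Xbp1 at 1099 and 3308.

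Of 19 measured sterol synthesis and uptake genes, 18 had a log2 ratio below 0 (median -0.68), but only Mvk and Dhcr7 passed 2-fold, Dhcr7 at 248 and 89.8. Plin2, a lipid droplet coat protein, was higher, at 16.8 and 302, as was Fabp5, a fatty acid binding protein, at 1736 and 4779.6, while the elongase Elovl5 read 2114 and 803. Odc1, the first enzyme of polyamine synthesis, read 677 and 2771, with both other probe sets at 1.8 and 2.03 on the log2 scale.

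Genes of mitosis lay on the lower side. All 28 measured mitosis genes had a log2 ratio below 0, with a median of -0.79, and 8 passed 2-fold: Plk1, the mitotic kinase, read 504 and 183, Ccnb2 read 1777 and 679.7, and Foxm1, the factor that drives this set, read 86.1 and 26.4. Mki67, the proliferation marker, was bright on both arrays (3445 and 1915). Of 31 DNA replication genes 30 lay within 2-fold (median -0.26), with the helicase subunit Mcm4 at 1075 and 1076. The CDK inhibitor Cdkn1a (p21) was 9.7-fold higher (74.9 and 727), with its other probe set at 3.61, and Cdkn2c (p18) was lower, at 785 and 181. Dnmt1, the maintenance methyltransferase, was on the lower side (1630.5 and 827), Dnmt3a was 2.78-fold lower with 2 of 4 other probe sets past 2-fold, and Tet1 was 3.46-fold lower without such support.

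Several large families did not separate the arrays. All measured members lay within 2-fold for proteasome subunits (27, median 0.09), cytosolic ribosomal proteins (19, median -0.26), housekeeping genes (12, median -0.20) and GIMAP GTPases of lymphocytes (8).

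**Figure D4:**
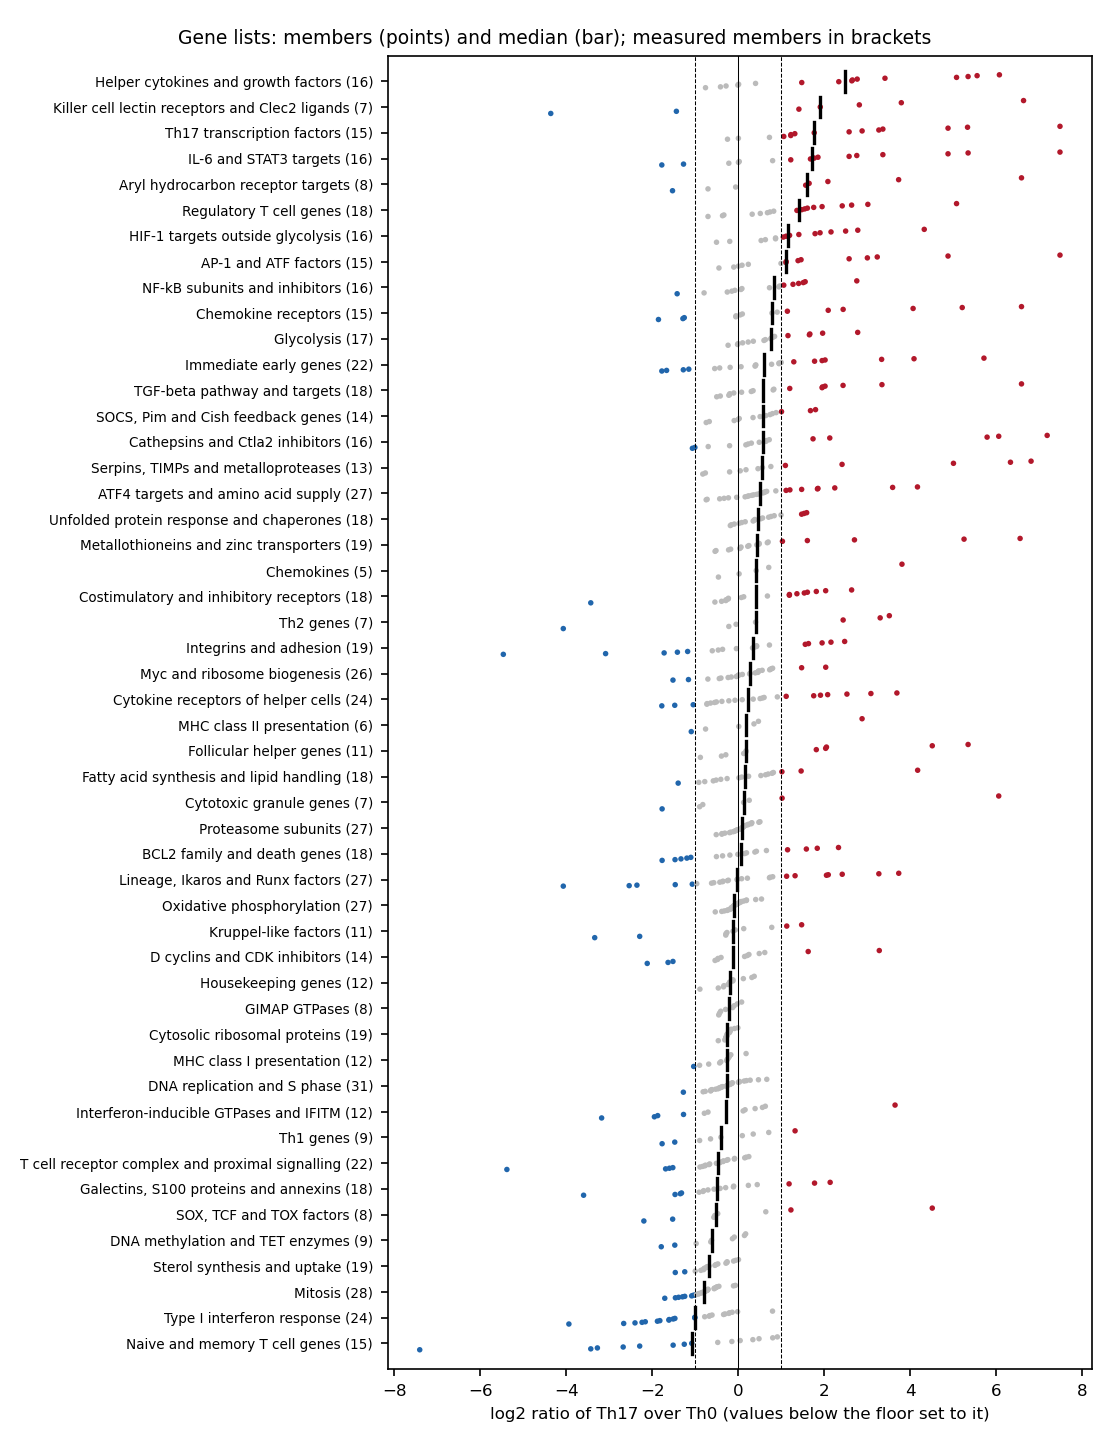
Log2 ratio of Th17 over Th0 (horizontal) of each measured member of 50 gene lists (points; red higher, blue lower, grey within 2-fold) with the list median (black bar) and the number of measured members in brackets. Cytokines, killer cell lectin receptors and Th17 factors have the highest medians, and naive and memory genes, the interferon response and mitosis the lowest.

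Markers of other cell types that a sort could carry over were mostly below the floor. The 7 lists of such markers are given by their counts. Of 11 B cell markers with a probe set, 9 were below the floor on both arrays, Cd79a at 0.945 in Th0 and 2.03 in Th17 and Ms4a1 at 10.3 and 8.77. Ighm, the immunoglobulin heavy chain gene, was lower at 3316 and 807, while its 3 other probe sets ranged from -2.85 to 0.21 on the log2 scale. The other measured B cell marker was higher, at a log2 ratio of 1.32. Of 12 macrophage markers 9 were below the floor, Lyz2 at 9.67 and 3.66, and 1 was lower, at a log2 ratio of -1.41. The summed signal of all 12 was 103 in Th0 and 66.4 in Th17. Of 8 neutrophil markers 6 were below the floor, S100a8 at 8.2 and 8.21. Of 9 dendritic cell markers only Batf3 and H2-Ab1 were higher, both described above, and Flt3, Siglech and Zbtb46 were below the floor. The summed signal of all 9 dendritic cell markers was 106 in Th0 and 375 in Th17. Of 7 natural killer cell markers 5 were below the floor, and the summed signal of all 7 was 28.4 and 198, with Klre1 at 0.544 and 167. That of all 11 B cell markers with a probe set was 3364 and 887. Cd8b1 (64.6 and 83.5) and Trgv4, of CD8 and gamma delta T cells, were within 2-fold, and of 8 erythroid and stromal markers 5 were below the floor and 3 within 2-fold. Whether carried-over cells had a part in any of the differences was not tested.

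The exFoxp3Th17 and Treg arrays, whose signals enter no ratio of Th17 over Th0, set a second Th17 culture against another control. Both the precursor and the control culture differ from those of the Th17 and Th0 arrays, and the choice of probe set and the floor used all 4 arrays. There 11197 genes were measured and 11.9% were called higher in exFoxp3Th17 and 10.4% higher in Treg. Of the 968 genes higher in Th17 than in Th0, 291 (30.1%) were higher there too and 160 (16.5%) were lower. Of the 134 that differed by 8-fold or more, 59 (44%) were higher and 36 (26.9%) lower. Of the 810 genes lower in Th17, 198 (24.4%) were lower there too and 137 (16.9%) were higher, and of the 47 at 8-fold or more 23 (48.9%) were lower and 7 (14.9%) higher. Gpr15 went the same way, at 2163 in exFoxp3Th17 and 121 in Treg, as did Rora (918 and 107), Il21 (339 and 1.7), Ccl20 (427 and 2.67) and Ccr6 (1522 and 54.5). Trat1 (48.2 and 876) and Klf2 (141 and 843) were lower in both. The opposite held for Tgm2 (21.5 and 236), Irf4 (80.3 and 373), Il10 (12 and 133), Plac8 (14.4 and 547) and both metallothioneins, Mt2 at 614 and 1792. Hk2 (98.9 and 383) also went the other way, and Egln3 (617 and 596) and Maf (2219 and 1351) lay within 2-fold.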

How the data were processed

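Deposited values of 4 mouse arrays, 1 per T cell population, were used. They are signal intensities on a linear scale, made by the authors with MAS5 per the submitters' processing notes; the version and the detection calls are not given in the sources used here. Of 45101 probe sets 64 are controls, 34945 name 1 gene in the platform annotation, 932 name several and 9160 are unnamed; only those with 1 gene stood for a gene, and symbols were updated through RefSeq for 34741 of them. The probe set with the highest mean log2 signal over the 4 arrays stood for a gene.

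The authors' scaling was kept. Values under 12.1 were set to it, and ratios were taken on the log2 scale with Python 3.11.15, numpy 2.4.6 and pandas 2.3.3. List medians use these floored ratios, in which a gene below the floor on one array stands at its bound. The calls were also tested on simulated data. The number of arrays limits the precision.

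The 57 gene lists hold 953 genes, 872 of them with a probe set of their own. The comparison, its lists and the naming rule were chosen with earlier results of these data known. The rule named the sort markers, the 25 largest ratios each way at 48.4 or more on the brighter array with no opposed probe set, list members, genes with 3 or more other agreeing or any opposed probe set, and adjacent runs; Eif2s3y was added. Promoter windows, 300 bases, are RefSeq's. Alternatives were 2 normalizations, 3 floors, a pseudocount, 3 choices of probe set and a 3-fold threshold.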

Additional observations from a re-analysis of the deposited data

Results flagged for a closer look

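Probe sets that the platform annotation leaves unnamed entered no count of genes, and they differed between the arrays more often on the lower side. Of 9160 such probe sets 3404 were above the floor on the Th0 or Th17 array, and 554 of these (16.3%) were lower by 2-fold or more in Th17 and 120 (3.53%) were higher. At 4 to 16 times the floor 29.7% were lower, against 9.53% of the probe sets standing for a gene and 12.5% of the other probe sets with 1 gene at the same signal. Over 16 times the floor the share was 12.9%, against 6.66% and 7.21%. What these probe sets read is not given here, and the cause was not tested.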

How the results depend on the processing

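Without replicates the results depend on the floor and the threshold. At 3-fold 475 genes were higher and 275 lower in place of 968 and 810, at 4 times the floor 580 and 484, and at 0.5 times the floor 1221 were lower. Fewer genes pass a stricter threshold or floor by construction. The other normalizations raised the share of higher genes among those called from 54.4% to 58.9% (quantile) and 58.8% (equal medians), and 0.5 times the floor lowered it to 49.2%. Of 218 called genes named in the text, 161 stayed past 2-fold under all 9 alternatives that keep the threshold. Nfkbiz changed sign, to -0.052 on the log2 scale with the mean of its probe sets. No called gene was called the opposite way under any alternative. Of 57 list medians 47 kept their sign under every alternative, and none of the 10 others lay beyond 0.5 from 0. No paired analysis was possible because each group has 1 array.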

Other observations

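Cell survival and cell cycle inhibitor genes were read alongside the groups above and differed in both directions. Of 18 measured BCL2 family and death genes 4 were higher in Th17 and 5 lower. Pmaip1, the BH3-only protein NOXA, read 53.7 in Th0 and 270.1 in Th17, and Casp6, an executioner caspase, read 200.3 and 715 with its other probe set at 1.16 on the log2 scale. Bbc3, the BH3-only protein PUMA, was lower at 80.3 and 29. Of 14 measured D cyclins, their kinases and CDK inhibitors 2 were higher and 3 lower. Cdk6 read 463 and 1428, with both other probe sets at 1.48 and 1.91 on the log2 scale.

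Of 18 measured galectins, S100 proteins and annexins 3 were higher and 4 lower. Lgals3, galectin 3, read 427 in Th0 and 968 in Th17, and Anxa4 read 58.1 and 256 with both other probe sets past 2-fold. Anxa1, a mediator of glucocorticoid action, was lower (146 and 10.7), and Anxa6 was 2.5-fold lower with 3 other probe sets agreeing. S100a4 read 127 and 49.9.

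Genes with 3 or more other probe sets above the floor, all of which passed 2-fold in the same direction, numbered 13 higher and 12 lower. Besides Maf and Rora, the higher ones included Enah, an actin regulator (31.7 in Th0, 682 in Th17), Tcf4, an E protein (24.3 and 179.9), and Marcks, a membrane and actin linker (48.9 and 219). The lower ones included Sgms1, sphingomyelin synthase (309.5 and 51.1), Sesn1, a sestrin (1047 and 227), and Rasgrp2, an exchange factor for RAP1 (363 and 83.3). On the Treg and exFoxp3Th17 arrays Enah was the opposite way round, at 532 in Treg and 17 in exFoxp3Th17.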
